A study of Mus musculus with 18 samples.

Results

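Chromatin around 10 genes of lipid uptake and of the PPAR nuclear receptors (Cd36, Fabp4, Fabp5, Pparg, Ppara, Lpl, Cav1, Cav2, Scarb1 and Meox2) was described in endothelial cells (ECs) freshly sorted from the lungs of 18 mice. ATAC-seq, in which a transposase cuts open chromatin, gave 1 list of peaks per mouse. All mice were of the FVB strain and, per the study's methods, were of both sexes and carried a Col1α1-GFP transgene that marks collagen-producing cells, so that the sort could remove leukocytes (CD45+), epithelial cells (EpCAM+) and GFP+ cells before CD31+ cells were taken. Young Sham (5 mice, 2 months old) and Aged Sham (4 mice, 18 months old) were sham-treated, and Young Bleo (4 mice, 2 months) and Aged Bleo (5 mice, 18 months) received a single dose of bleomycin (1 U/kg), a drug that injures the lung and causes fibrosis, with cells taken on day 30. On the 19 autosomes, X and Y, peaks of the 18 lists sharing 1 bp or more were joined, which gave 47338 regions called in 2 or more samples. Of these, 49 had a transcription start site (TSS) of a member gene as the nearest RefSeq TSS of the mm10 genome, and the rule that also takes regions within a gene body added none.

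Capillary ECs of the lung and other tissues take up fatty acids and pass them on. Lipoprotein lipase (Lpl) releases fatty acids from lipoproteins at the vessel wall, the scavenger receptor CD36 takes them up, the binding proteins FABP4 and FABP5 carry them in the cell, and caveolins 1 and 2 form the membrane pits called caveolae. SR-BI, the product of Scarb1, binds high-density lipoprotein. PPARγ and PPARα are nuclear receptors that bind DNA as heterodimers with RXR and respond to fatty acids, and MEOX2 is a homeobox factor that, with TCF15, is known to drive fatty acid uptake in heart endothelium.

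The sequences of 7 regions are shown because the values by group are described below for 6 of them (Pparg, Fabp4, Cav2, Lpl, Scarb1 and the intronic Cd36 region) and because the remaining region, upstream of Cd36, held a peak in every sample and a match to a PPAR-RXR element. Each is the 200 bases around the strongest summit, on the strand of its gene, from the mm10 reference, which is C57BL/6J and not FVB. Capitals mark a match to 1 of 4 motifs searched on both strands, namely the ETS core CAGGAAG, the forkhead motif GTAAACA, the AP-1 motif TGANTCA, and a PPAR-RXR element of 2 AGGTCA repeats 1 base apart with at most 2 mismatches.
Pparg intron, 10.5 kb upstream of the most downstream TSS, chr6:115411490-115411689 (+): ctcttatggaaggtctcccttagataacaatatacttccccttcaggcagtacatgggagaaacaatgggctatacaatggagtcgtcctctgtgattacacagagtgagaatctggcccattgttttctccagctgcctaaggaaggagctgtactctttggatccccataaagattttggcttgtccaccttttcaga
Fabp4, 5.3 kb upstream of the TSS, chr3:10213851-10214050 (−): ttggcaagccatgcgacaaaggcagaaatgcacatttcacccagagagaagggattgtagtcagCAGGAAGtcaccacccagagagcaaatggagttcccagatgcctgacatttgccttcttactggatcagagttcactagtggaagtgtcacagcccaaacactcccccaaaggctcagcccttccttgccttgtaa
Cav2, 27.5 kb upstream of the TSS, chr6:17253668-17253867 (+): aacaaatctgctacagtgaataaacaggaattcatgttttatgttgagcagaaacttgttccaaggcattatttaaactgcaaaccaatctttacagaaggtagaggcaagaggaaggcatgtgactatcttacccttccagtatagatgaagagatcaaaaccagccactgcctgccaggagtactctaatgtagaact
Lpl, 73.6 kb downstream of the TSS, chr8:68954064-68954263 (+): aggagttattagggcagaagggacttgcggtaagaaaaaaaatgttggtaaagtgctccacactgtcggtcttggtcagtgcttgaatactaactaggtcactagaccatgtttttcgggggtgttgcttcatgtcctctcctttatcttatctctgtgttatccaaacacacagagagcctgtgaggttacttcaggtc
Scarb1 intron, 1.9 kb downstream of the TSS, chr5:125339104-125339303 (−): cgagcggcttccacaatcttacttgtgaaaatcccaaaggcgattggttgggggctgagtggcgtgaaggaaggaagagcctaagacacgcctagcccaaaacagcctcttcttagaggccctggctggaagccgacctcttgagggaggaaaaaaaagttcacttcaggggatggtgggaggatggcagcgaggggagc
Cd36 intron, 5.4 kb downstream of the upstream TSS, chr5:17883509-17883708 (−): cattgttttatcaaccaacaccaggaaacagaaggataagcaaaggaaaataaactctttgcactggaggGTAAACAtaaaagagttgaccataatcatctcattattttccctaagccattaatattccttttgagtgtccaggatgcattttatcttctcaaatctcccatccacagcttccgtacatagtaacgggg
Cd36, 35.3 kb upstream of the upstream TSS, chr5:17924267-17924466 (−): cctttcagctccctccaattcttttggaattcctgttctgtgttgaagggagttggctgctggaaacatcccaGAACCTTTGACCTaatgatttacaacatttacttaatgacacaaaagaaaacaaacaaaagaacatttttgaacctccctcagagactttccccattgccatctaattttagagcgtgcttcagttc

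In these 200-base windows of the 49 member regions, the ETS core was found in 10 (20.4%, against 19.96% of all 47338 regions), the forkhead motif in 3 (6.12% against 4.44%), the AP-1 motif in 6 (12.2% against 8.63%) and the PPAR-RXR element in 2 (4.08% against 2.58%). Over the whole length of the regions, the shares were 26.5% against 31.6% for the ETS core, 10.2% against 8.02% for the forkhead motif, 14.3% against 15.3% for AP-1 and 12.2% against 6.36% for the PPAR-RXR element (6 member regions), so that the order of members and all regions turned round for ETS and AP-1. The PPAR-RXR matches within the 200-base windows both lay upstream of Cd36, each with 2 mismatches, 16.1 and 35.3 kb from its upstream TSS. Among the sequences shown, the Fabp4 region held an ETS core and the intronic Cd36 region a forkhead motif, and in the Pparg, Cav2, Lpl and Scarb1 regions no motif of the 4 was found. The median GC content of the 200 bases was 49.5% in the member regions (range, 38.0% to 81.5%) and 53.0% over all regions.

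The lists held 21050 to 40883 peaks. A peak had a median of 25 to 33 fragments at its summit, and the weakest peak of a list had 7 to 10, so that a region without a peak was below the caller's threshold and not necessarily closed. Lists of young mice held 30073 to 39420 peaks and those of Aged Sham 25793 to 32220, with an overlap from 30073 to 32220, and Aged Bleo spanned both (21050 to 40883). Promoters of 5 of 8 endothelial markers had a peak in every sample and none of the 8 was without a peak throughout. Promoters of the 4 leukocyte, 5 alveolar macrophage, 4 adipocyte and 4 alveolar type 2 markers examined had no peak in any of the 18 samples, whereas Hopx, Pdgfra and Myh11, listed as alveolar type 1, fibroblast and mural markers, had one in all 18. The other genes of those 3 lists (Ager and Aqp5, Col1a1 and Tcf21, and Pdgfrb, Cspg4 and Acta2) had none in any sample, and the lymphatic genes Prox1 and Lyve1 had a peak in 17 and 7. The file names carry a lane number, read here as the sequencing lane although the labels and methods do not say what it stands for. It was 8 for all Young Sham samples and Young Bleo 4, 7 for Young Bleo 1 to 3 and Aged Sham 1 to 3, and 6 for Aged Sham 4 and all Aged Bleo samples. Age and lane therefore cannot be told apart in the comparisons of aged groups with Young Sham, and in Young Bleo against Young Sham only Young Bleo 4 separates bleomycin from lane.

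A member region had a peak in a median of 13 samples and a region in general in 14, a comparison given without a test. A peak was present in all 18 samples at 9 of 49 member regions (18.4%), against 36.8% of all regions. This was so at 4 of 9 member promoters (44.4%, against 79.2% of all promoter regions) and at 5 of 40 member regions elsewhere (12.5% against 25.4%). Strength was measured as the percentile of a region's fold enrichment among the peaks of its own list, with 0 where there was no peak, because fold enrichment was not scaled between lists. The median over member regions was 11.6, against 25.2 over all regions. By position, 19 member regions were intergenic, 16 intronic, 9 in a promoter (from 1000 bp before a TSS to 100 bp after it), 3 in a UTR and 2 in a coding exon. Scarb1 had 15 regions, Cd36 and Cav1 had 7 each, Cav2 had 5, Fabp5, Pparg and Lpl had 4 each, and Fabp4, Ppara and Meox2 had 1 each. A further 9 regions at these genes had a peak in a single list and were not kept.

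**Figure D1:**
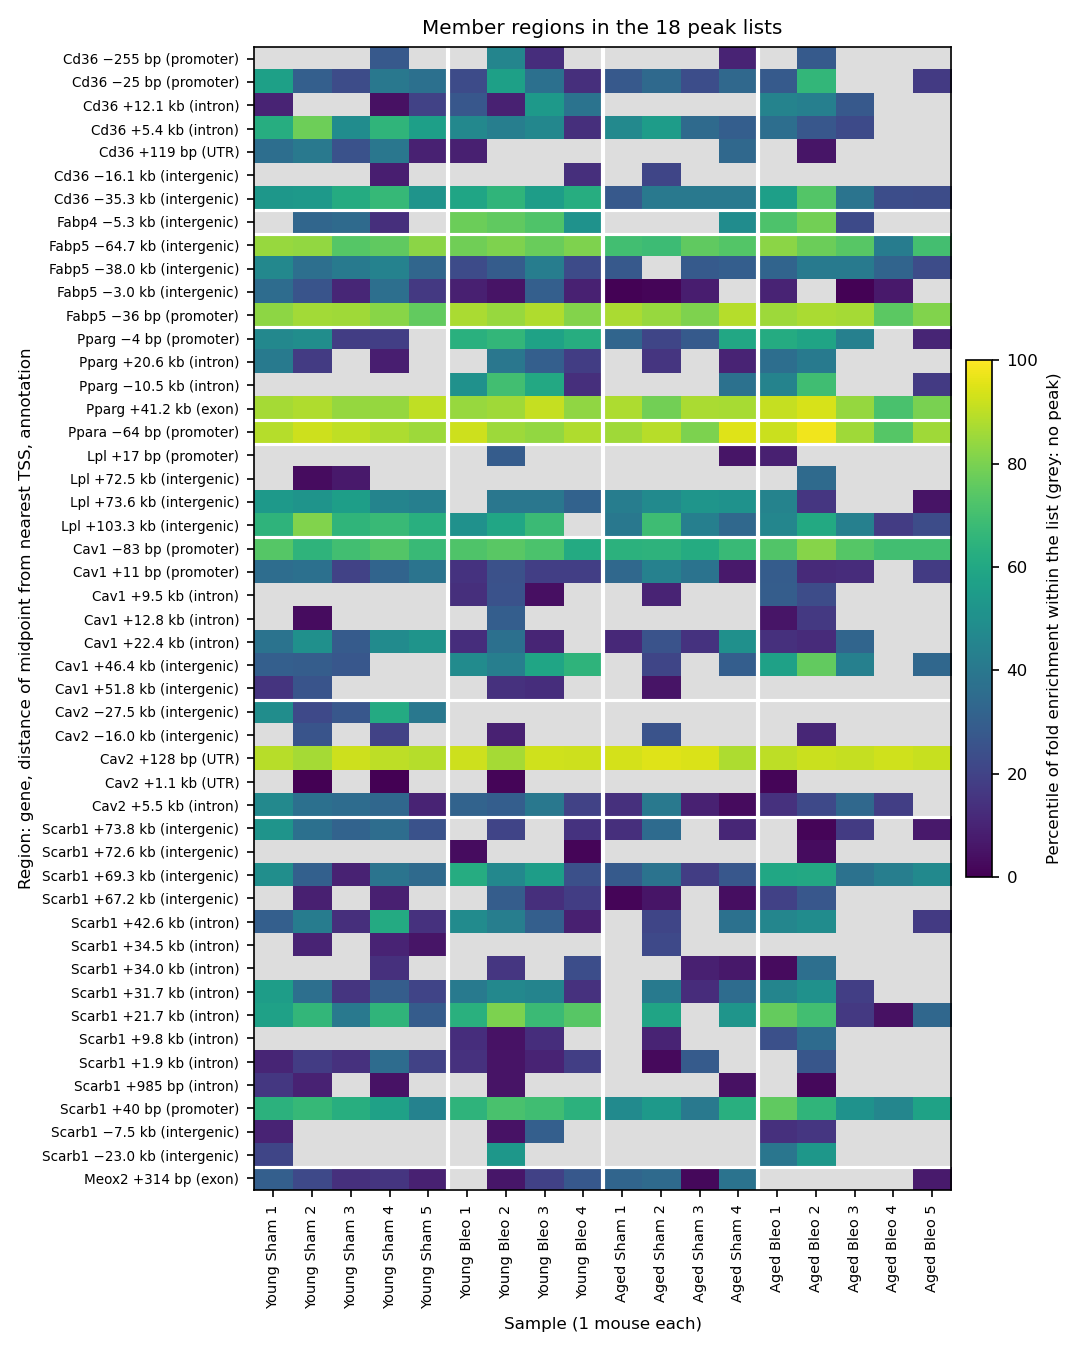
Percentile of fold enrichment within the list (colour, 0 to 100; grey, no peak) for the 49 member regions (rows, named by gene, distance from the nearest TSS and annotation) in the 18 samples (columns, ordered by group). The promoters of Fabp5, Ppara and Scarb1, the upstream Cav1 promoter and the region at the Cav2 TSS are filled in every column. The Cav2 region 27.5 kb upstream is filled in Young Sham only.

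Among young mice, a peak was present at 68.6% ± 9.31 (SD) of member regions in the 5 sham samples and at 71.4% ± 11.7 in the 4 bleomycin samples. Among aged mice, it was present at 56.6% ± 12.4 in the 4 sham samples and at 55.1% ± 22.8 in the 5 bleomycin samples. All regions gave 71.9%, 75.1%, 59.2% and 62.9% in the same order, so that their share was lower in aged mice too. The Aged Bleo samples ranged from 14 to 41 member regions, which covered the ranges of Young Sham (28 to 38) and Aged Sham (22 to 33). When every list was cut to its 21050 strongest peaks and merged again, 28 member regions remained. For this cut, here and below, peaks were ranked by −log10 p and not by the fold enrichment that gives the percentiles. Of these, 65.0% ± 5.3 had a peak in Young Sham, 59.8% ± 4.49 in Young Bleo, 58.9% ± 2.06 in Aged Sham and 52.1% ± 8.22 in Aged Bleo, against 73.2% to 74.4% of all regions in the 4 groups.

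**Figure D2:**
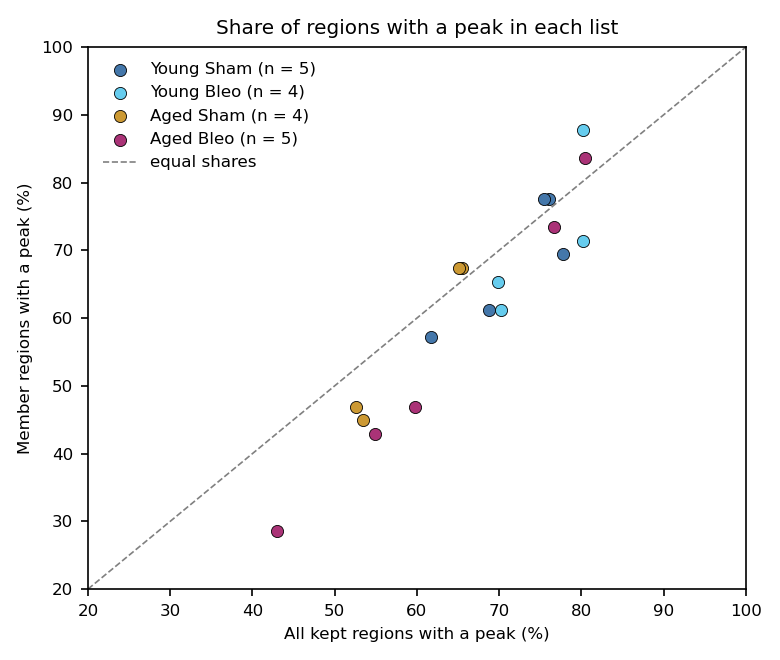
Percent of the 49 member regions with a peak (y axis) against percent of all 47338 regions with a peak (x axis), 1 point per sample, coloured by group; the dashed line marks equal shares. Aged Bleo 4, the shortest list, has 28.6% of member regions, and Young Bleo 2 has the highest share at 87.8%.

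The start sites of the member genes differed widely in accessibility, measured as a peak anywhere in the promoter window. Fabp5, Ppara, Cav1, Cav2 and Scarb1 had a peak at a TSS in all 18 samples, with median percentiles among the peaks of the list of 85.1 for Fabp5, 87.9 for Ppara, 69.9 for the upstream Cav1 TSS, 91.9 for Cav2 and 62.9 for Scarb1. The second Cav1 TSS was covered in 17 samples at a median percentile of 24.7. No sample had a peak at the TSS of Fabp4, and the Lpl TSS was covered in 3 of 18 (Young Bleo 2, Aged Sham 4 and Aged Bleo 1). Cd36 has 3 annotated start sites. The middle one was covered in 16 samples, the most upstream in 8 and the most downstream in 5.

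Pparg, which encodes PPARγ, has 4 annotated start sites. The promoter windows of the most upstream pair, which share a region (chr6:115360805-115361475), had a peak in 16 of 18 samples, all but Young Sham 5 and Aged Bleo 4. The next start (chr6:115362349) lies beyond the end of that region, but its window, reaching 1000 bp upstream, overlaps it. A peak reached into this window in 4 of 18 samples (1 Young Sham, 2 Young Bleo and 1 Aged Bleo). No separate kept region lay there, so no peak at this start itself is shown. The most downstream TSS, 61.1 kb from the first and the start of the PPARγ2 transcript, had none in any sample. The strongest Pparg region outside a promoter (chr6:115462865-115463664, in an exon 41.2 kb downstream of that start) was called in all 18 samples, at percentiles of 71.2 to 93.8.

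The intronic Pparg region 10.5 kb before the downstream start (chr6:115411403-115411816) also separated injured from uninjured young mice, here by presence of a peak. It had no peak in Young Sham (0 of 5) and a peak in all 4 Young Bleo samples, at percentiles of 50.5, 69.8, 60.5 and 13.3. In Aged Sham it was called in sample 4 alone (37.3), and in Aged Bleo in samples 1, 2 and 5 (44.7, 69.4 and 16.9). Young Sham and Young Bleo did not overlap, whereas both aged groups held samples with and without the peak. Presence was higher in Young Bleo than in Young Sham (two-sided Fisher's exact test, p = 0.00794, the smallest that 5 against 4 samples allow; adjusted p = 0.535 over all regions). Over both ages it was called in 7 of 9 bleomycin and 1 of 9 sham samples, a description only, since it then met the minimum of 2 samples through the bleomycin samples. Among the 21050 strongest peaks of each list, it was called in 3 of 4 Young Bleo, 0 of 5 Young Sham, 0 of 4 Aged Sham and 1 of 5 Aged Bleo samples. Over both ages it was not called as different there, but it had again entered through bleomycin samples alone, so no p is given. Within lane 8, the only Young Bleo sample had the peak and the 5 Young Sham samples did not, and within lane 7 all 3 Young Bleo and none of the 3 Aged Sham samples had it. Lane 6 went the other way, with the peak in its 1 Aged Sham sample and in 3 of 5 Aged Bleo samples. Peaks there had 11 to 33 fragments at the summit.

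At Fabp4, a PPARγ target that encodes a fatty acid carrier, the only region lay 5.3 kb upstream of the TSS (chr3:10213648-10214116, intergenic). Young Bleo had a peak in all 4 samples, at percentiles of 77.5, 75.6, 72.3 and 51.1. In Young Sham it was called in samples 2, 3 and 4, at 33.1, 34.7 and 13.3. Each Young Bleo value was thus above each Young Sham value, including that of Young Bleo 4, which shared their lane. The share of all regions whose values separate so was not counted, here or at the other genes. By limma on percentiles, 16.8% of all regions differed between these 2 groups at an unadjusted p of at most 0.05. Aged Sham had it in sample 4 only (48.6), and Aged Bleo in samples 1, 2 and 3 (72.0, 78.6 and 22.5), so the aged groups overlapped. Presence alone did not differ at the threshold, since 3 of 5 Young Sham samples had a peak. Among the 21050 strongest peaks of each list it was called in 4 of 4 Young Bleo and 0 of 5 Young Sham samples (Fisher's exact test, p = 0.00794, adjusted p = 0.377). Over both ages it was called in 6 of 9 bleomycin against 1 of 9 sham samples. That is a description only, since it then met the minimum of 2 samples through the bleomycin samples.

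The 4 regions of Fabp5, a second carrier, were more even. The promoter was between the 74.7th and 88.8th percentile in all samples, and the strongest region outside it, 64.7 kb upstream (chr3:9947645-9948105), lay between 42.0 and 84.7. The region 3.0 kb upstream had a peak in all Young Sham samples at 10.9 to 36.4, and in the 9 samples from aged mice it was absent from Aged Sham 4, Aged Bleo 2 and Aged Bleo 5 and reached at most 9.9 in the others. Each Young Sham value was therefore above each aged value. Young Bleo (8.8, 5.4, 30.4 and 9.2) overlapped both.

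**Figure D3:**
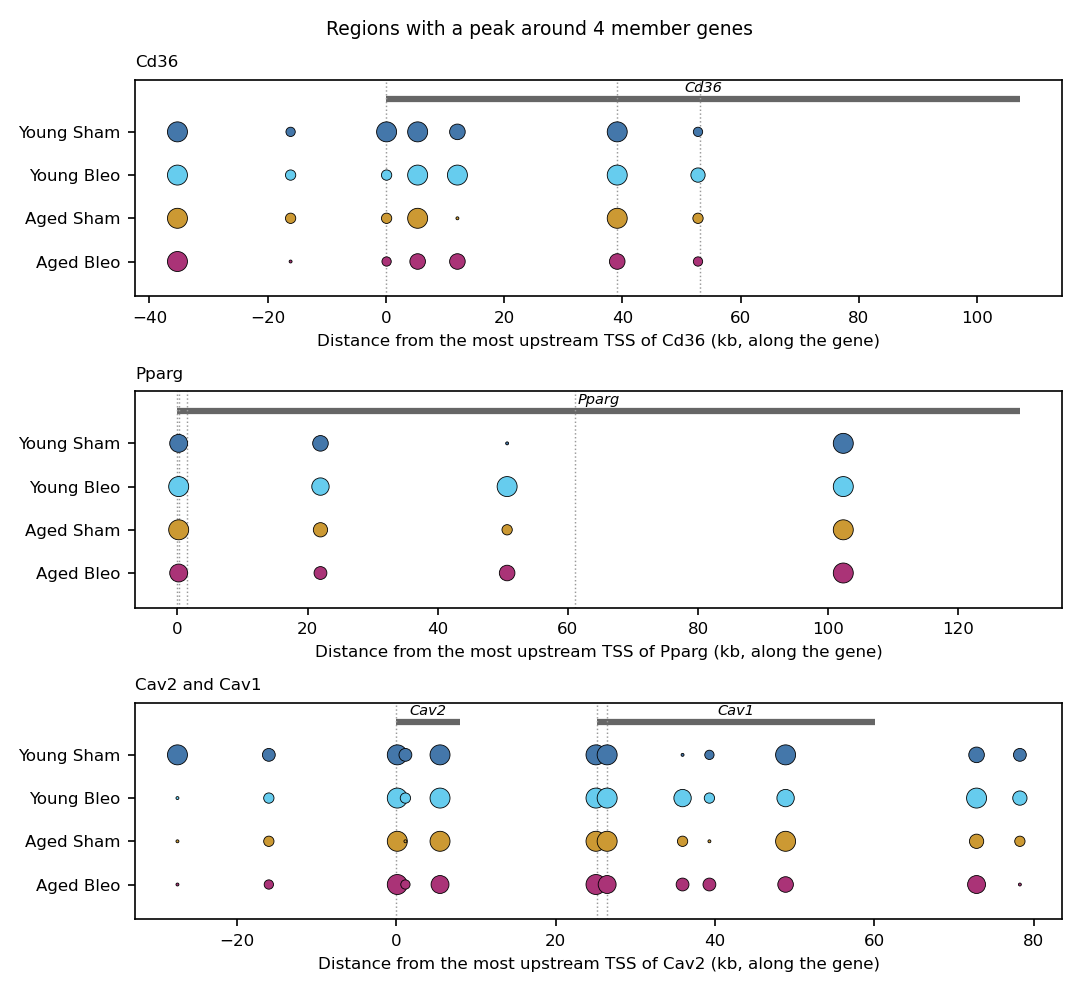
Regions at Cd36, Pparg and the neighbouring genes Cav2 and Cav1, by distance from the most upstream TSS (x axis, kb along the gene); grey bars are the genes and dotted lines their TSSs. The area of a circle gives the share of samples in a group with a peak (the smallest dots, none); the circle 50.7 kb into Pparg is empty in Young Sham and full in Young Bleo.

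Cd36 encodes the fatty acid receptor of capillary ECs. At its most upstream TSS (chr5:17888631-17889048, UTR, 119 bp downstream), a peak was present in 5 of 5 Young Sham samples, at percentiles of 36.0, 40.5, 25, 39.6 and 9.3. It was called once in each of the other groups, namely Young Bleo 1 at 8.7, Aged Sham 4 at 33.7 and Aged Bleo 2 at 5.8. Each group differed from Young Sham at p = 0.0476 (Fisher's exact test; adjusted p from 0.801 to 1). The percentiles overlapped, since Aged Sham 4 lay among the Young Sham values. The calls against Aged Sham and Young Bleo were lost in 8 of the 9 fits with 1 sample left out, where p rose to at most 0.143.

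The Cd36 region in an intron 5.4 kb downstream of that TSS (chr5:17883311-17883860), was present in 16 of 18 samples and differed in strength. Young Sham gave percentiles of 62.4, 77.9, 48.8, 65.3 and 56.6, and Young Bleo 46.8, 42.7, 46.2 and 13.3. Aged Sham gave 47.0, 55.2, 34.6 and 29.7, and Aged Bleo 36.0, 27.1 and 22.5 with no peak in samples 4 and 5. All Young Sham values were above all Young Bleo and all Aged Bleo values, and Aged Sham overlapped Young Sham. As at Fabp4, the share of all regions that separate so was not counted. Among the 21050 strongest peaks it was called in 8 of 9 sham and 1 of 9 bleomycin samples. The minimum of 2 samples was then met through sham mice only, so no p is given. The region 35.3 kb upstream (chr5:17923743-17924708), with the PPAR-RXR match shown above, was the strongest Cd36 region outside a promoter and was called in all 18 samples. Its percentiles were 52.9, 54.2, 61.6, 66.9 and 51.7 in Young Sham, 58.8, 65.3, 55.6 and 62.4 in Young Bleo, 28.1, 40.5, 40.5 and 40.6 in Aged Sham, and 56.5, 73.1, 38.3, 23.8 and 23.3 in Aged Bleo. All Aged Sham values lay below all young values, and Aged Bleo spanned both. For aged against young mice the percentile over all regions fell by 18.78 points (SE 5.72, limma adjusted p = 0.0573) and that among regions called in every sample fell by 9.49 (SE 4.29, limma adjusted p = 0.202), and neither passed.

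Lpl had no strong region near its start. Its 2 strongest regions lay far downstream, 73.6 kb (chr8:68953802-68954463) and 103.3 kb (chr8:68983515-68984151) from the TSS, in intergenic sequence where Lpl was the nearest annotated gene. At 73.6 kb, Young Sham had percentiles of 53.8, 51.7, 55.9, 45.3 and 43.0 and Aged Sham of 42.5, 47.8, 52.0 and 51.1. Young Bleo had no peak in sample 1 and 39.8, 39.8 and 31.3 in the others, and Aged Bleo had 44.7, 16.0 and 5.2 in samples 1, 2 and 5 and no peak in samples 3 and 4. All Young Bleo values lay below all sham values, also for Young Bleo 4 in the lane of Young Sham, and Aged Bleo overlapped them only through sample 1. Among the 21050 strongest peaks of each list, the region was called in 8 of 9 sham and 0 of 9 bleomycin samples. It then met the minimum of 2 samples through sham mice alone, and so this is a description without a p. The region at 103.3 kb was called in 17 samples, all but Young Bleo 4, at 17.7 to 80.9.

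At the caveolin genes, which lie next to each other on chromosome 6, start sites were open in all groups and distal regions varied. The Cav2 region 27.5 kb upstream of the TSS (chr6:17253538-17253903, intergenic) was called in 5 of 5 Young Sham samples, at percentiles of 49.1, 21.9, 27.3, 61.2 and 40.1, and in 0 of the 13 other samples. It entered the set of regions through Young Sham alone, since no other group met the minimum of 2 samples, and so could be called only as lower than in Young Sham. The difference is therefore given as a description, without a p. Its peaks were small, with 15 to 29 fragments at the summit, and among the 21050 strongest peaks of each list 2 of 5 Young Sham samples had it. In lane 8, the Young Bleo sample lacked it and all 5 Young Sham samples had it.

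An intronic Cav1 region 9.5 kb downstream of the second TSS (chr6:17316943-17317288) had the opposite pattern. It was called in 0 of 5 Young Sham, 3 of 4 Young Bleo, 1 of 4 Aged Sham and 2 of 5 Aged Bleo samples (Young Bleo against Young Sham, exact p = 0.0476, adjusted p = 0.801), with percentiles of 4.2 to 29.6. The Young Bleo sample in lane 8 lacked it, as did all 5 Young Sham samples there, whereas in lane 7 it was called in 3 of 3 Young Bleo and 1 of 3 Aged Sham samples. The call was lost in 8 of 9 fits with 1 sample left out (p up to 0.143). The Cav1 region 46.4 kb downstream (chr6:17353778-17354253) was the strongest Cav1 region outside a promoter. Its percentiles in Young Bleo were 48.2, 42.7, 58.9 and 64.9, all above Young Sham, where samples 1, 2 and 3 had 30.2, 29.6 and 27.3 and the other samples no peak. Aged Sham had peaks in samples 2 and 4 (20.9 and 29.7), and Aged Bleo in all but sample 4 (57.4, 75.9, 43.6 and 33.3). Each bleomycin sample with a peak there was above each sham sample, and Aged Bleo 4 had none. Among the 21050 strongest peaks it was called in 7 of 9 bleomycin and 0 of 9 sham samples. This is a description only, since it then met the minimum of 2 samples through the bleomycin samples alone.

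Of the 15 Scarb1 regions, 9 lay within the gene and 6 were nearest to it. The strongest outside the promoter (chr5:125319087-125319686, intron, 21.7 kb downstream of the TSS) was called in 16 samples, at 4.3 to 80.2. The intronic region 1.9 kb downstream (chr5:125339052-125339411) was called in all 9 young samples, at percentiles of 5.3 to 35.4. In aged mice it was called in Aged Sham 2 and 3 (2.5 and 28.7) and Aged Bleo 2 (26.8). Presence was lower in aged than young mice over both treatments (3 of 9 against 9 of 9, exact p = 0.00905, adjusted p = 0.624) and in Aged Bleo than in Young Sham (exact p = 0.0476, adjusted p = 1). The strengths overlapped where a peak was present. Among the 21050 strongest peaks of each list, the difference over both treatments was 0. A further intronic region, 9.8 kb downstream (chr5:125331092-125331450), was called in 0 of 5 Young Sham, 3 of 4 Young Bleo, 1 of 4 Aged Sham and 2 of 5 Aged Bleo samples (Young Bleo against Young Sham, exact p = 0.0476, adjusted p = 0.801). Here too Young Bleo 4, in the lane of Young Sham, had no peak, and the call was lost in 8 of the 9 leave-one-out fits.

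Meox2, the homeobox gene, had 1 region, in an exon (chr12:37108243-37109464, midpoint 314 bp downstream of the TSS). Young Sham had a peak in every sample (30.2, 21.9, 14, 15.3 and 9.3), as did Aged Sham (32.7, 34.6, 2.3 and 38.2). Young Bleo had it in samples 2, 3 and 4 (6.1, 19.4 and 27.6) and Aged Bleo in sample 5 only (7.2). Presence was lower in Aged Bleo than in Aged Sham and in Young Sham (Fisher's exact test, p = 0.0476 in each, adjusted p = 1) and lower with bleomycin over both ages (4 of 9 against 9 of 9, exact p = 0.0294, adjusted p = 1). Strength overlapped between groups where a peak was called, with 9 to 18 fragments at the summit. Within lane 6, Aged Sham 4 had the peak and 1 of 5 Aged Bleo samples did. The call against Aged Sham was lost in 8 of 9 fits with 1 sample left out (p up to 0.143).

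**Figure D4:**
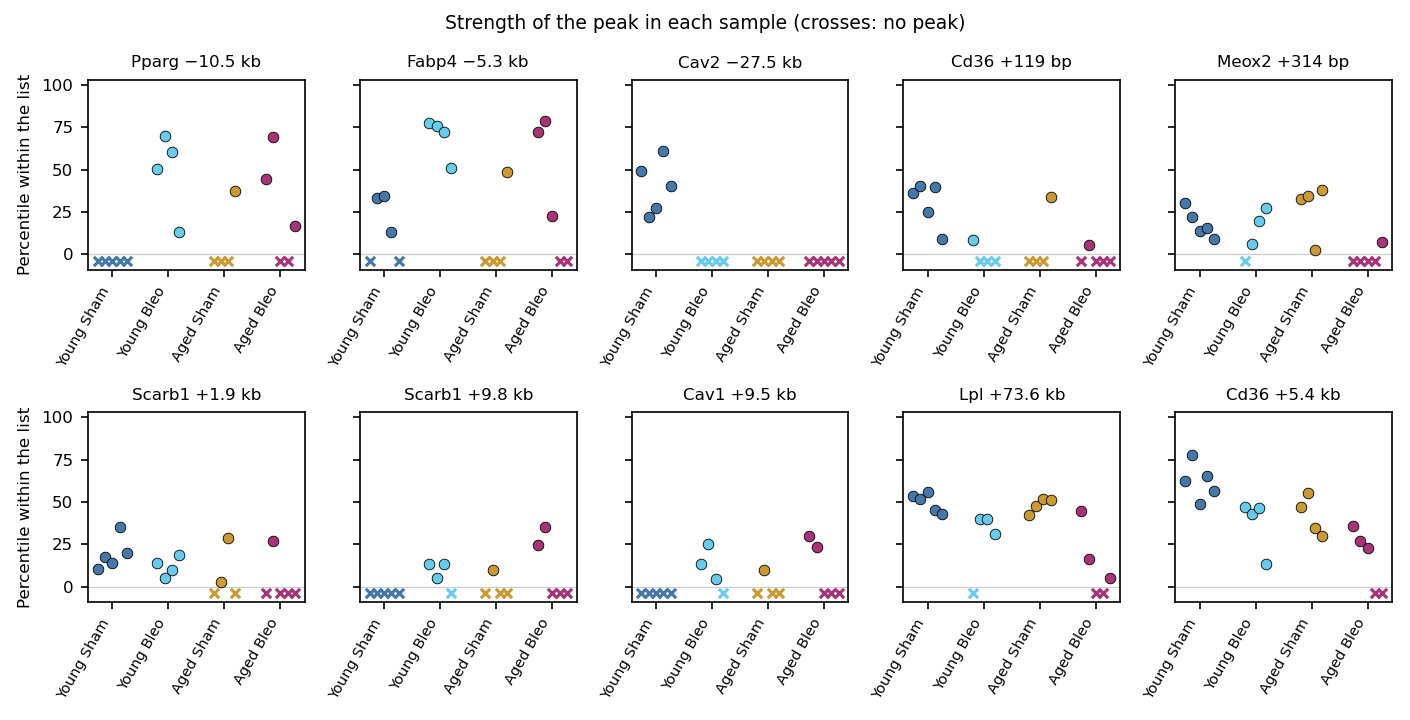
Percentile of fold enrichment within the list (y axis) at 10 member regions, 1 point per sample in the 4 groups; crosses mark samples without a peak. At Pparg 10.5 kb upstream the 4 Young Bleo samples are at 13.3 to 69.8 and Young Sham has crosses only, and at Cav2 27.5 kb upstream Young Sham alone has points.

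Counts of called member regions are set here beside the share of all regions called by the same rule. In Aged Sham against Young Sham, 2 of 49 member regions were lower and 0 higher, where 4.9% and 0.264% of all regions were. In Young Bleo against Young Sham, 2 were lower and 3 higher (background, 1.96% and 3.98%). In Aged Bleo against Young Sham, 4 were lower and 0 higher (background, 3.01% and 0.201%), and in Aged Bleo against Aged Sham, 1 was lower and 0 higher (background, 0.41% and 0.475%). For aged against young mice over both treatments, 2 were lower and 0 higher (background, 4.87% and 0.127%), and for bleomycin against sham over both ages, 2 were lower and 1 higher (background, 1.23% and 2.17%). The counts of lower regions against Young Sham, for aged against young mice and for bleomycin against sham each include the Cav2 region that only Young Sham held, and the 1 higher with bleomycin over both ages is the Pparg intronic region, which sham mice held in 1 sample. These calls are at an unadjusted Fisher's exact p of at most 0.05. After Benjamini-Hochberg adjustment over all 47338 regions, 0 regions of any kind passed in the 6 comparisons, and comparisons that share Young Sham samples are not independent.

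With every list cut to its 21050 strongest peaks, the same exact test was run on the 28 member regions that remained among 27853, and 0 regions of any kind passed the adjustment. In Young Bleo against Young Sham, 4 were lower (at Cd36 5.4 kb, Lpl 73.6 kb, Cav2 5.5 kb and Scarb1 73.8 kb downstream of a TSS; background, 3.17%) and 4 higher (the Pparg promoter, the Pparg intronic region, Fabp4 and Cav1 46.4 kb downstream; background, 3.68%). Of these, the Pparg intronic region met the minimum of 2 samples in the shortened lists only through Young Bleo. In Aged Bleo against Young Sham, 4 were lower and 1 higher (background, 1.95% and 1.1%), and in Aged Bleo against Aged Sham, 2 were lower and 1 higher (background, 0.923% and 0.539%). In Aged Sham against Young Sham, 1 was lower, 3.0 kb upstream of Fabp5, and 1 higher, the Pparg promoter (background, 1.55% and 1.38%). For aged against young mice over both treatments, 0 of 28 were called in either direction (background, 1.02% and 0.847%). For bleomycin against sham over both ages, 3 were lower (Cd36, Lpl and Scarb1, as above) and 2 higher (Fabp4 and Cav1; background, 2.42% and 2.05%). In the shortened lists these 5 regions had a peak in at most 1 sample of the lower set and so entered through the higher one. Their direction was thus fixed by the minimum of 2 samples, and the counts over both ages are a description only. In the whole lists each of the 5 was called in 2 or more samples of either set.

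Strength over all 47338 regions, with 0 for no peak, was also compared in a limma fit with Benjamini-Hochberg adjustment. In Aged Bleo against Young Sham, 7 of 49 member regions passed, all lower (background, 5.93%). They were the intronic Cd36 region (fell by 45.06 percentile points, SE 8.44, adjusted p = 0.00652), the Lpl region 73.6 kb downstream (fell by 36.74, SE 8.36, adjusted p = 0.0184), the Cd36 region at the most upstream TSS, Fabp5 3.0 kb upstream, Cav1 22.4 kb downstream, Scarb1 73.8 kb downstream and Cav2 27.5 kb upstream. The Cav2 region is counted here and in the 4 other comparisons where it passed, but its p is not given, because it was 0 in every sample outside Young Sham and the fit then understates its error. In Young Bleo against Young Sham, 3 passed, all lower (background, 3.34%), namely the Cd36 region at the most upstream TSS, Scarb1 73.8 kb downstream and Cav2, whereas the intronic Cd36 region did not (adjusted p = 0.159). In that comparison the Fabp4 region was 52.90 ± 16.42 (SE) and the Pparg intronic region 48.53 ± 13.84 percentile points higher, and neither passed (adjusted p = 0.0978 and 0.0694). In Aged Sham against Young Sham, 2 passed, both lower, at Fabp5 3.0 kb upstream and Cav2 (background, 2.64%). For aged against young mice over both treatments, the same 2 passed (background, 7.17%), and for bleomycin against sham over both ages, 3 passed, the intronic Cd36 region, Lpl 73.6 kb downstream and Cav2, all lower (background, 2.99%). In Aged Bleo against Aged Sham 0 passed (background, 0.0803%), with 8 of 49 at an unadjusted p of at most 0.05, where 7.96% of all regions were. For the interaction of age and bleomycin 0 passed (background, 0.152%), with 3 unadjusted, where 6.95% of all regions were. The length of the lists moved with the groups here, and its part in these differences was not tested.

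The 9 member regions called in all 18 samples were compared by their percentile among the 17432 regions called in every sample. The Cav1 promoter (chr6:17305932-17306572) was stronger in Aged Bleo (55.1 ± 7.2, SD, n = 5) than in Young Sham (41.0 ± 6.1, n = 5), by 14.12 percentile points (SE 4.12, limma adjusted p = 0.0394). Aged Bleo samples were at 43.9, 58.4, 56.2, 63.4 and 53.7 and Young Sham samples at 42.3, 30.2, 43.2, 44.1 and 45.0, so that Aged Bleo 1 lay within the Young Sham range. Among all peaks of the list, the difference was smaller and did not pass (3.70, SE 2.86, limma adjusted p = 0.458). A Scarb1 region 69.3 kb downstream of the TSS, beyond the gene (chr5:125271576-125271965, intergenic), rose from 5.5 ± 3.5 in Young Sham to 21.7 ± 7.7 in Aged Bleo (difference 16.23, SE 4.35, limma adjusted p = 0.0279). The Aged Bleo values there (22.4, 21.4, 10.1, 31.8 and 23) were all above the Young Sham values (9.9, 3.7, 1.0, 5.2 and 7.8). Among all peaks of the list the difference was 17.07 (SE 7.74) and did not pass (limma adjusted p = 0.214). Over both ages, its percentile was 12.33 higher with bleomycin (SE 3.26, limma adjusted p = 0.0359), with Young Bleo at 30.3, 9.4, 15.9 and 3.2 and Aged Sham at 7.8, 8.3, 4.3 and 4.5. Among all peaks of the list it was 18.20 higher and did not pass (SE 5.80, limma adjusted p = 0.105). In the former comparison a member region passed in 7 of 18 fits with 1 sample left out, and 0 passed without Young Sham 2, 3 or 4, Young Bleo 1 or 3, any Aged Sham sample, or Aged Bleo 1 or 5. Young Bleo 4, from the lane of Young Sham, lay within the Young Sham range. Aged Sham 4, from the lane of Aged Bleo, was below all 5 Aged Bleo samples at this region and, at 42.4, at the Cav1 promoter.

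Of the 9, then, 2 passed in Aged Bleo against Young Sham (background, 10.6%) and 1 in bleomycin against sham over both ages (background, 6.17%). With limma, 0 passed in Aged Sham against Young Sham (background, 1.21%), Young Bleo against Young Sham (background, 2.75%), Aged Bleo against Aged Sham (background, 0.344%), aged against young mice (background, 3.91%) or for the interaction (background, 0.00574%). At an unadjusted p of at most 0.05 the counts of the 9 were 2, 0, 2, 4 and 1 in the same order, where 15.9%, 17.4%, 15.9%, 22.7% and 9.12% of all regions called in every sample were. The Fabp5 promoter was 10.59 percentile points (SE 3.46) higher in Aged Sham than in Young Sham and did not pass (limma adjusted p = 0.141). Ppara, whose single region is its promoter (chr15:85735129-85735870), was at 78.0 ± 4.5 (SD) in sham and 73.2 ± 9.7 in bleomycin-treated young mice, and at 80.2 ± 8.2 and 80.0 ± 9.8 in the aged, with overlapping values in all 4 groups. Leaving out Young Sham 2, 3 or 4, or Aged Bleo 4 or 5, left 0 calls in Aged Bleo against Young Sham.

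**Figure D5:**
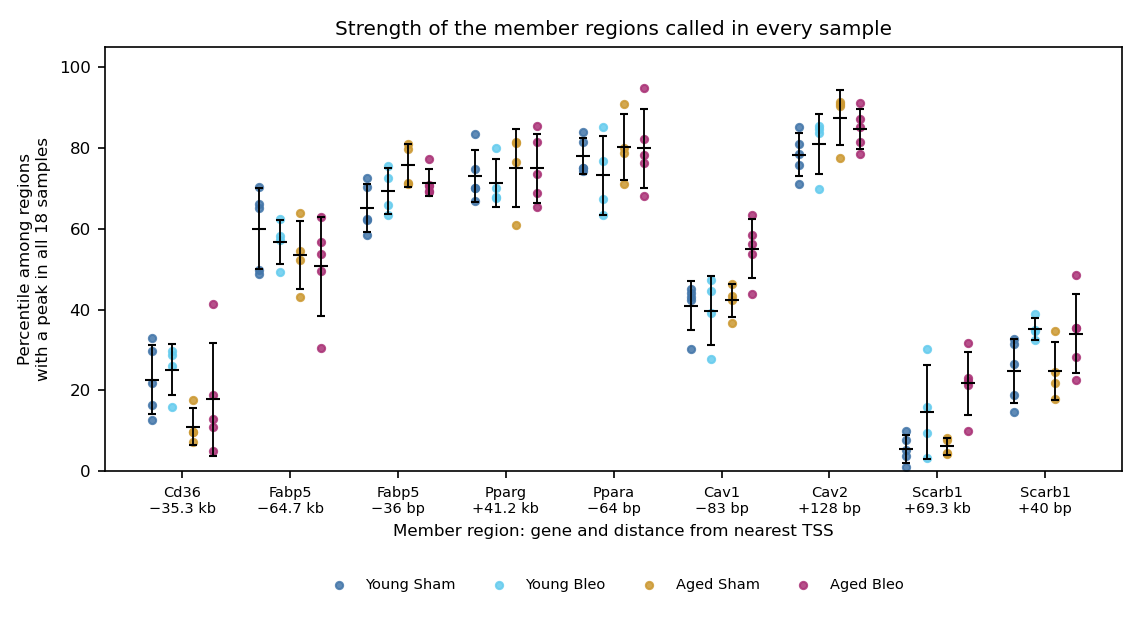
Percentile among the 17432 regions called in all 18 samples (y axis) for the 9 member regions called in every sample (x axis); points are samples, bars mean ± SD by group. The Cav1 promoter is at 55.1 in Aged Bleo against 41.0 in Young Sham, and the Scarb1 region 69.3 kb downstream at 21.7 against 5.5.

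A list of 55 other genes of fatty acid handling, PPAR partners and caveolae had 233 regions at 51 genes, of which 81 were called in all samples. In Young Bleo against Young Sham 15 were higher (6.44%, against 3.98% of all regions) and 4 lower (1.72% against 1.96%). In Aged Sham against Young Sham 1 was higher (0.429% against 0.264%) and 10 lower (4.29% against 4.9%), and in Aged Bleo against Young Sham 1 was higher (0.429% against 0.201%) and 8 lower (3.43% against 3.01%). Aged Bleo against Aged Sham gave 0 higher (background, 0.475%) and 1 lower (0.429% against 0.41%). Aged against young mice gave 0 higher (background, 0.127%) and 10 lower (4.29% against 4.87%), and bleomycin against sham 5 higher (2.15% against 2.17%) and 2 lower (0.858% against 1.23%). The cavin genes, whose products coat caveolae, and Acsl4, which activates long fatty acids, were among those with the smallest p. An intronic Cavin1 region 8027 bp downstream of the TSS (chr11:100962374-100962801) was called in 0 of 5 Young Sham and 4 of 4 Young Bleo samples (exact p = 0.00794), in 2 of 4 Aged Sham and in 4 of 5 Aged Bleo samples. A region 63556 bp upstream of Cavin2 was called in 5 of 5 Young Sham, 0 of 4 Young Bleo, 1 of 4 Aged Sham and 0 of 5 Aged Bleo samples. A region 911 bp downstream of the Cavin3 TSS was called in 9 of 9 young and 2 of 9 aged samples (exact p = 0.00226), and one 144457 bp upstream of Acsl4 in 8 of 9 young and 0 of 9 aged samples. The Cavin2 region entered through Young Sham and the Acsl4 region through the young mice, so both could be called only as lower elsewhere, and no p is given for them. An intronic region of Ppargc1b, which encodes a coactivator of PPARs, was called in 0 of 5 Young Sham, 4 of 4 Young Bleo, 1 of 4 Aged Sham and 2 of 5 Aged Bleo samples (Young Bleo against Young Sham, exact p = 0.00794).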

How the data were processed

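Per the study's methods, nuclei were profiled by Omni-ATAC-seq, paired-end reads were mapped to mm10 with BWA, duplicates were removed, and peaks were called in each sample with MACS2 at a false discovery rate of at most 1%. The deposited peak lists give, for each peak, a fold enrichment (a ratio to local background), a score, a −log10 p and a −log10 q value, all as the authors' caller wrote them and not scaled between samples. Read counts were not analysed here, so the study's test on counts was not used. Fragments at a summit were solved from the fold enrichment and −log10 p (at least 99.986% came out whole within 0.02 fragments, for −log10 p up to 250). Mitochondrial peaks (19 in all) were left out.

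Overlapping peaks were joined across samples (1 bp sufficed), joined regions called in 2 or more samples were used, and the nearest of 45756 RefSeq transcript starts (GRCm38.p6, the same build) was taken by midpoint. Positions are 1-based. Presence was compared by two-sided Fisher's exact tests per region (call at p ≤ 0.05, Benjamini-Hochberg adjustment over all regions), and percentiles of fold enrichment by limma 3.58.1 (R 4.3.3) in a fit of 4 groups with adjusted p ≤ 0.05. Other steps used Python 3.11.15, scipy 1.17.1 and pandas 2.3.3, and the tests were tested on simulated data. Samples were grouped by their titles, 1 mouse each. Members and gene lists were chosen with earlier results of these data known. Regions named are those at a start site, the strongest of each gene outside promoters, those called in any comparison, and the 5 called regions of the gene list with the smallest p. Further Cd36, Lpl, Fabp5, Fabp4, Cav2 and Scarb1 values were chosen after they were seen. The cut to equal numbers of peaks and the other alternatives are given below.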

Additional observations from a re-analysis of the deposited data

Results flagged for a closer look

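Among 84 sets of values (a region or the share of regions called in 1 group), 8 held a sample far from the others of its group by Dixon's criterion, which chance does in about 1 in 20 sets. At the Cav1 promoter, Young Sham 2 was at a percentile of 30.2 among regions called in all samples, where the others of the group were at 42.3 to 45.0. At the Cav2 start, Young Bleo 2 was at 69.8 (others, 83.6 to 85.5) and Aged Sham 4 at 77.5 (others, 90.4 to 91.5). The Fabp5 promoter was at 77.3 in Aged Bleo 3 (others, 69.0 to 70.8). Among the peaks of the own list, the Fabp5 region 3.0 kb upstream was at 30.4 in Young Bleo 3 (others, 5.4 to 9.2), and the Lpl region 103.3 kb downstream at 80.9 in Young Sham 2 (others, 63.2 to 67.8). The Cd36 intronic region 5.4 kb downstream was at 13.3 in Young Bleo 4 (others, 42.7 to 46.8), and Meox2 at 2.3 in Aged Sham 3 (others, 32.7 to 38.2).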

How the results depend on the processing

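None of 17 single-region calls changed direction. For the calls of the Cav2 region 27.5 kb upstream, and of the Pparg intronic region over both ages, direction was fixed by the minimum of 2 samples. Their unchanged direction is therefore no support. The share of member regions with a peak was higher in Young Bleo than in Young Sham over whole lists and lower with equal numbers of peaks. Of the 17 calls, 12 kept their side of the threshold when peaks needed a −log10 q of 5, and 12 when they covered 50% of the region. At a fold enrichment of 5 or more 10 kept it, and in limma 14. Of 9 that could be matched among the 21050 strongest peaks, 1 did. When regions needed 3 samples all 17 kept it. That was fixed in advance, since regions were only dropped and each called region had a peak in more than 3 samples.

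Counts of called member regions that moved are given with the share of all regions called under the same setting. For Young Bleo against Young Sham (5) they were 3 at a −log10 q of at least 5 (6.28%), 8 with equal numbers of peaks (6.85%) and 11 in limma on percentiles (16.8%). For Aged Sham against Young Sham (2) they were 3 at a −log10 q of at least 5 (5.42%) and 3 at a fold enrichment of at least 5 (4.58%). In the same comparison they were 5 with 50% cover (6.4%) and 7 in limma (18.6%). For Aged Bleo against Young Sham (4) they were 5 with equal numbers (3.05%), 9 with 50% cover (5.94%) and 13 in limma (21.9%). For Aged Bleo against Aged Sham (1) they were 0 at a fold enrichment of at least 5 (0.999%), 3 with equal numbers (1.46%) and 8 in limma (7.96%). For aged against young (2) they were 4 at the q limit (5.43%), 1 at the fold limit (4.09%), 0 with equal numbers (1.87%), 7 with 50% cover (8.41%) and 9 in limma (26.3%). For bleomycin against sham (3) they were 5 at the q limit (3.56%), 6 at the fold limit (3.53%) and 5 with equal numbers (4.46%). In that comparison they were also 4 with 50% cover (3.84%) and 15 in limma (18.2%). The limma counts call at an unadjusted p, and the cause of the differences was not tested.

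No clear pairing of the mice by the replicate numbers of the labels was seen, although this check cannot exclude one. Deviations of same-numbered samples correlated at −0.193 to 0.335, over 0.1 in 5 of 25 pairs, and 4 of 18 samples correlated best with their own number. With the replicate block, the limma counts in the same order were 12, 9, 13, 9, 10 and 16 (all regions, 16.6%, 21.3%, 22%, 9.05%, 26.5% and 18.6%), and 1 region instead of 2 changed in strength in Aged Bleo against Young Sham.

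That strength count was 1 when ranked by −log10 p, 1 on quantile-normalised log2 values and 7 over all regions, which are all lower and do not include the 2 counted, both higher; ranking by −log10 p gave 2 in Aged Bleo against Aged Sham. Over all regions Aged Sham and Young Bleo against Young Sham gave 2 and 3, and aged against young and bleomycin against sham gave 2 and 3.

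With each sample left out, called regions were 2 to 4 for Young Bleo against Young Sham, 1 to 2 for Aged Sham and 4 to 5 for Aged Bleo against Young Sham, 0 to 1 for Aged Bleo against Aged Sham, 2 to 4 for aged against young and 3 to 6 for bleomycin against sham. Changed strengths were 0 to 2 for Aged Bleo against Young Sham, 0 to 1 for aged against young and for bleomycin against sham, and 0 to 0 in the other contrasts. Taking only gene bodies and promoters left 30 of 49 regions, and promoters of 2 kb on either side held 15 instead of 9.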
